A study of Mus musculus with 6 samples.

Results

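The genes described here encode the pore-forming subunits of the AMPA and NMDA receptors, the ionotropic glutamate receptors that carry most fast excitatory transmission in the cerebral cortex. They were taken by gene symbol from a table of counts per gene, and all 10 named subunits, 4 AMPA (Gria1 to Gria4) and 6 NMDA (Grin1, Grin2a to Grin2d and Grin3a), were found among its 47728 genes. RNA sequencing was done on cortex of FAD5x mice, an Alzheimer's disease model, and of C57BL/6 wildtype mice (Control), with 3 libraries in each group. FAD5x mice carry human transgenes with familial Alzheimer's disease mutations, driven by the neuronal Thy1 promoter. Age, sex and litter of the animals are not given, and neither is whether each library came from a separate animal. The p-values below therefore reflect the spread among the libraries alone, and that spread may be technical in part. The Control libraries came from more than 1 animal, because Control replicate 1 differs from the others in sex, as described below. No treatment other than the genotype is given.

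An AMPA receptor is an assembly of GluA subunits that opens on binding glutamate and carries the fast synaptic current. An NMDA receptor needs the obligatory GluN1 subunit, encoded by Grin1, together with GluN2 subunits (Grin2a to Grin2d) or GluN3 subunits. With GluN2 subunits it admits calcium only when glutamate, a co-agonist and depolarisation coincide. In the forebrain the GluN2B subunit dominates early in life and the GluN2A subunit is added as synapses mature. Soluble amyloid-beta is known for disturbing the trafficking of both receptor types at cortical synapses.

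Calcium permeability of AMPA receptors is set at 1 pore codon, the Q/R site. Its coding context in the annotated reference transcripts is shown because the counts sum transcripts with and without editing of this codon. The codon is in capitals and 24 bases are given on each side.
Gria1: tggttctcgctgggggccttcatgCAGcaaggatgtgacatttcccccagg
Gria2: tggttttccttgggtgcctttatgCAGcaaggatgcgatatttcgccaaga
Gria3: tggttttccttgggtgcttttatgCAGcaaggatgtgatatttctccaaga
Gria4: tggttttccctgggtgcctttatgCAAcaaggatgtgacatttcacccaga
The codon is number 607 of the Gria2 reading frame, and every one of the 4 genes encodes glutamine there. In Gria2 transcripts of the brain an ADAR enzyme edits this codon so that arginine is made, which keeps calcium out of receptors that hold the subunit. Counts per gene do not resolve the edited from the unedited form, nor the alternative flip and flop exons of these genes.

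In protein sequence, the helix that forms the channel gate is the most conserved stretch of the family. It is shown for 9 of the genes because paralogs this close could share reads. The lines give 8 codons, and capitals mark bases that differ from Gria1.
Gria1: tcatacacagccaacctggctgcc
Gria2: tcCtacacGgcTaacTtAgctgcc
Gria3: tcCtacacTgcAaacctTgctgcT
Gria4: tcCtacacTgcTaaTctggctgcA
Grin1: tcCtacacTgccaacctggcAgcc
Grin2a: AGTtacacagccaacctggctgcc
Grin2c: AGCtacacGgccaaTctggcAgcc
Grin2d: AGCtaTacagccaaTctggctgcc
Grin3a: AcatacacagcGaacTtggctgcT
In this stretch the other 8 genes shown differed from Gria1 by 3 to 6 bases. Elsewhere in the reading frames Gria1 shared an exact run of 35 bases with Gria3 and with Gria4. Over whole reading frames the AMPA genes were 70.5% to 73.1% identical to each other and the NMDA genes 59.5% to 69.6%. The longest exact run shared by 2 of the genes was 59 bases, a simple repeat in Gria3 and Gria4 that did not lie in both reading frames. Gria2 shared a run of 56 bases with Gria3 and of 55 with Gria4. In all, 3 of 45 pairs shared a run of 50 bases or more. Grin2a shared 11.6% of its 50-base words with transcripts of other genes, nearly all with the predicted gene Gm7328, which was not analysed here. Grin1 shared 8.24%, nearly all with the antisense gene Grin1os, and Grin2d 7.57%, with the antisense gene Gm45441. Because the strandedness of the counting is not given, reads of Grin1 and Grin2d cannot be told apart from those of the antisense partner in the shared stretches. Grin1os had 281 to 341 counts per FAD5x library and 189 to 252 per Control library, against 7035 to 10620 counts of Grin1 per library. The other 7 genes shared at most 0.882%.

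Total counts were 17363946 to 24137936 per library. Levels are in CPM, counts scaled to a common library total by the trimmed mean of M values. Differences are log2 ratios of FAD5x to Control, each with its standard error after the ± sign. Values of a group are listed in the order of replicates 1, 2 and 3. Control replicate 1 had 3 counts of Xist and 3124 of Y-linked genes, against 10346 to 22631 and at most 9 in the other 5 libraries, and so differs from them in sex. FAD5x replicates 1 and 2 have related library names and were counted as separate samples. FAD5x replicate 1 also stood apart in markers of striatal neurons, whose summed level was 1349.8 CPM there and 151 to 253 CPM in the other libraries. These are bulk samples, in which fewer cells of a type and less RNA per cell cannot be told apart.

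All 10 subunit genes passed the filter on low counts. In FAD5x cortex 1 subunit, Grin3a, fell and 0 rose at an adjusted p below 0.05 (edgeR quasi-likelihood test). Of all 17074 tested genes 3.15% were called, and 1.39% were called lower. At an unadjusted p below 0.05, 3 subunits were lower, Grin3a, Grin2b and Gria4, against 21.3% of all genes in either direction. At an adjusted p below 0.1, Grin3a and Grin2b were called, against 7.33% of all genes, and with DESeq2 Grin3a, Grin2b and Gria4 were called, against 8.7%. The fitted difference was below 0 for 8 subunits and above 0 for Gria3 and Grin2c. The median over the 10 genes was -0.26, against 0.02 over all tested genes. FAD5x and Control libraries did not overlap for 4 subunits, Gria2, Gria4, Grin2b and Grin3a, each lower in FAD5x. Of all tested genes 13.2% were lower without overlap and 27.4% did not overlap in either direction. Without FAD5x replicate 1 and Control replicate 1, which stand apart in striatal markers and sex, 0 subunits were called (2 at an unadjusted p below 0.05), and the median was -0.12. That smaller fit called 34 of 17225 genes in all, or 0.197%, so its count of 0 says little about the subunits.

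**Figure D1:**
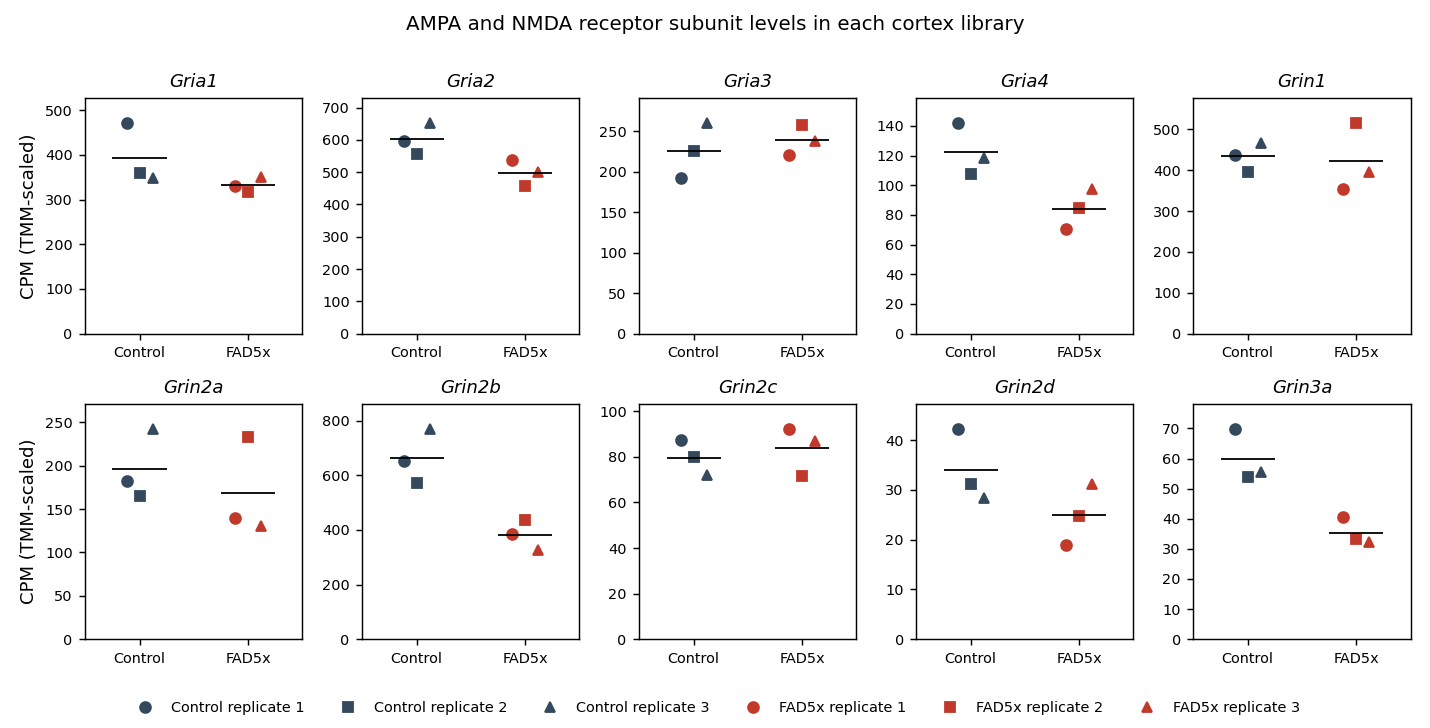
Level of each AMPA and NMDA subunit gene in CPM (vertical axis, from 0) in the 3 Control and the 3 FAD5x libraries, with a point per library and a line at the group mean. The groups are apart for Gria2, Gria4, Grin2b and Grin3a and overlap for the other 6 genes.

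Among the AMPA subunits, Gria1 (ENSMUSG00000020524) encodes GluA1, which is inserted into synapses during long-term potentiation. The FAD5x libraries stood at 329.8, 317 and 349.6 CPM and the Control libraries at 471, 359.6 and 348 CPM. Control replicate 1 was the highest library and the other 5 lay close together. The difference of -0.24 ± 0.16 did not pass the test (adjusted p = 0.431, 95% interval -0.61 to 0.12).

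Gria2 (ENSMUSG00000033981) encodes GluA2, the subunit that makes the receptor impermeable to calcium. Its level came to 536, 457 and 499.7 CPM in the FAD5x libraries, against 596, 558 and 651 CPM in Control. Every FAD5x library lay below every Control library, by a small margin between FAD5x replicate 1 and Control replicate 2. The difference was -0.27 ± 0.15 and did not pass the test (adjusted p = 0.325, 95% interval -0.60 to 0.06).

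Gria3 (ENSMUSG00000001986), an X-linked gene for GluA3, which mostly pairs with GluA2, showed no such separation. It had 221, 258 and 237 CPM in the FAD5x libraries, against 192, 226 and 259.7 CPM in Control. The lowest library was Control replicate 1, the one that differs in sex. The difference was 0.08 ± 0.15 (adjusted p = 0.804, 95% interval -0.27 to 0.43), and without Control replicate 1 it was -0.02.

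Gria4 (ENSMUSG00000025892) encodes GluA4, a fast-gating subunit typical of parvalbumin interneurons. It had 70.3, 84.7 and 97.6 CPM in the FAD5x libraries, against 142, 108 and 118 CPM in Control. All FAD5x libraries lay below all Control libraries. The difference of -0.54 ± 0.16 was the largest of the AMPA subunits and did not pass the test over all genes (adjusted p = 0.115, unadjusted p = 0.00990, 95% interval -0.91 to -0.17). With DESeq2 Gria4 was called (adjusted p = 0.0478), and without FAD5x replicate 1 and Control replicate 1 the difference was -0.30 (adjusted p = 0.518).

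Of the NMDA subunits, Grin1 (ENSMUSG00000026959), the gene of the obligatory subunit, did not separate the groups. It had 355, 515 and 395 CPM in the FAD5x libraries, against 438, 395 and 468 CPM in Control. FAD5x held both the lowest and the highest library. The difference was -0.04 ± 0.17 (adjusted p = 0.922, 95% interval -0.44 to 0.36), and its sign turned when FAD5x replicate 1, FAD5x replicate 3 or Control replicate 3 was left out.

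Grin2b (ENSMUSG00000030209), the gene of GluN2B, the subunit that binds CaMKII and prolongs the synaptic current, had the largest difference of the 10 genes. Its level was 384, 438 and 328 CPM in the FAD5x libraries, against 652, 573 and 769.7 CPM in Control. The highest FAD5x library lay below the lowest Control library. The fitted level was 1.74-fold lower in FAD5x (-0.80 ± 0.18, 95% interval -1.20 to -0.39), with an adjusted p of 0.0510, just over the threshold. The difference was -0.67 to -0.89 with 1 library left out at a time, and the adjusted p was then 0.0207 to 0.170, below the threshold only without FAD5x replicate 2. It was called with DESeq2 (adjusted p = 0.000437), with library totals only (0.0276), with upper-quartile scaling (0.0424), with no filter on low counts (0.00915), and with FAD5x replicates 1 and 2 summed as 1 library (0.0476). It was not called with limma-voom (0.0525), RLE size factors (0.0506), protein-coding genes only (0.0507), a replicate block (0.182) or without FAD5x replicate 1 and Control replicate 1 (0.325). In all, 6 of 16 refits called Grin2b.

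Grin2a (ENSMUSG00000059003) encodes GluN2A, the subunit of mature synapses with fast decay. It had 140, 233 and 131 CPM in the FAD5x libraries, against 182, 165 and 242 CPM in Control. Here FAD5x replicate 2 lay at the level of Control replicate 3, the highest library, and the groups overlapped. The difference was -0.23 ± 0.25 (adjusted p = 0.651, 95% interval -0.79 to 0.34), from -0.53 without FAD5x replicate 2 to -0.04 without Control replicate 3.

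Grin2c (ENSMUSG00000020734), whose product GluN2C is best known from the cerebellum and from astrocytes, had 92.2, 71.8 and 87.1 CPM in the FAD5x libraries, against 87.4, 79.7 and 71.9 CPM in Control. The groups overlapped fully and the difference was 0.07 ± 0.14 (adjusted p = 0.815, 95% interval -0.25 to 0.39). Markers of cerebellum summed to 0.388 to 6.80 CPM in these libraries. The 8 astrocyte markers summed to 5421, 4645 and 3263 CPM in the FAD5x libraries, against 4373, 6367 and 4740 CPM in Control. Of them 6 were below 0 and 2 above, with a median of -0.23 and 0 called (edgeR, with 0 at an unadjusted p below 0.05).

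Grin2d (ENSMUSG00000002771), a gene of interneurons and of early development in cortex, had 18.9, 24.8 and 31.1 CPM in the FAD5x libraries, against 42.2, 31.1 and 28.3 CPM in Control. Control replicate 1 was high and the remaining libraries overlapped. The difference was -0.44 ± 0.22 and did not pass the test (adjusted p = 0.287, 95% interval -0.94 to 0.05).

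Grin3a (ENSMUSG00000039579) encodes GluN3A, a glycine-binding subunit that lowers calcium entry and holds back synapse maturation. It fell from 69.8, 53.9 and 55.7 CPM in the Control libraries to 40.7, 33.1 and 32.3 CPM in the FAD5x libraries. The highest FAD5x library lay below the lowest Control library. The level was 1.69-fold lower (-0.76 ± 0.15, adjusted p = 0.0369, 95% interval -1.10 to -0.41). With 1 library left out at a time the difference was -0.63 to -0.87, and the call held only without FAD5x replicate 2 (adjusted p = 0.0421). Leaving out FAD5x replicate 1 or 3 gave an adjusted p of 0.0559 or 0.0677, and leaving out Control replicate 1, 2 or 3 gave 0.143, 0.102 or 0.0909. Library totals as the only scaling also ended the call (0.0566).

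**Figure D2:**
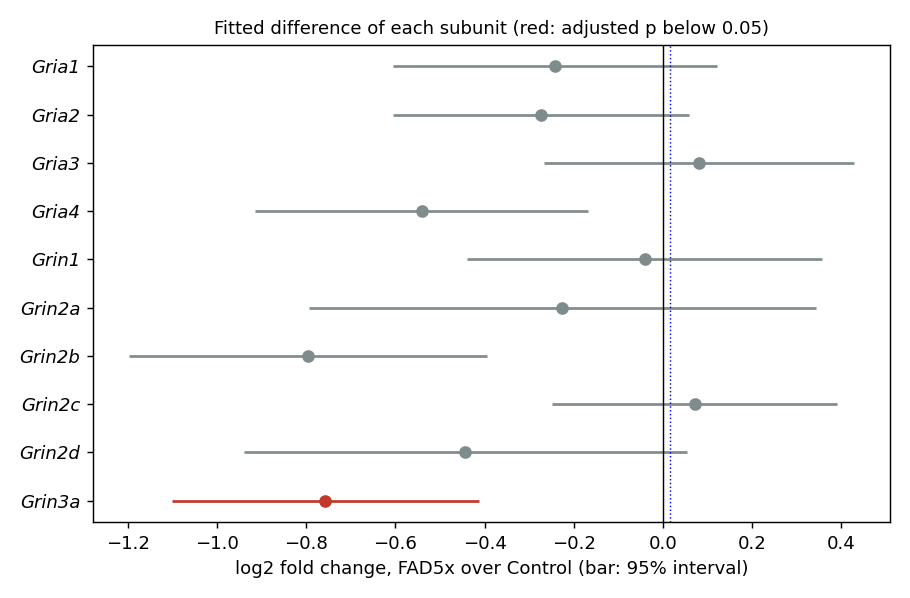
Fitted log2 fold change of each subunit gene, FAD5x over Control, with its 95% interval from the edgeR fit. The dotted line is the median of all tested genes (0.02), and Grin3a, in red, is the single subunit with an adjusted p below 0.05.

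Within each receptor type the mix of subunits can be compared inside a library, where scaling between libraries cancels. These shares are of the level per kilobase of annotated exon and are given as values without a test. Grin2a made up 33.6%, 42.5% and 35.6% of the sum of Grin2a and Grin2b in the FAD5x libraries. In the Control libraries it made up 27.9%, 28.6% and 30.4%. The FAD5x libraries were all higher, with a mean of 37.2% ± 4.68 (SD, n = 3) against 28.9% ± 1.28, a gap of 8.28 percentage points. Grin2a itself was not higher in FAD5x (-0.23 ± 0.25) and Grin2b stood at -0.80 ± 0.18. The higher share is therefore not separate from the Grin2b difference given above. Leaving out single libraries gave gaps of 5.64 to 10.1 points, the smallest without FAD5x replicate 2.

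The Gria2 share of the 4 AMPA subunits did not separate the groups. It was 28.1%, 24.2% and 24.8% in FAD5x and 24.2%, 26.5% and 29.0% in Control. The Gria1 share also overlapped, at 43.1% to 44.7% in FAD5x and 39.8% to 49.3% in Control. The Gria4 share was lower in all FAD5x libraries, at 9.10%, 11.1% and 11.95%, than in Control, at 14.2%, 12.6% and 12.98%. The Gria3 share was higher in all FAD5x libraries, at 18.3%, 21.6% and 18.6%, than in Control, at 12.3%, 16.9% and 18.2%, with almost no gap between Control replicate 3 and FAD5x replicate 1. The level of the 4 AMPA genes together was 1157, 1117 and 1184 CPM in the FAD5x libraries, against 1399.8, 1251 and 1377 CPM in Control, without overlap. The level of the 6 NMDA genes together was 1030.3, 1315 and 1005 CPM in the FAD5x libraries, against 1472, 1298 and 1635 CPM in Control, with FAD5x replicate 2 inside the Control range.

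**Figure D3:**
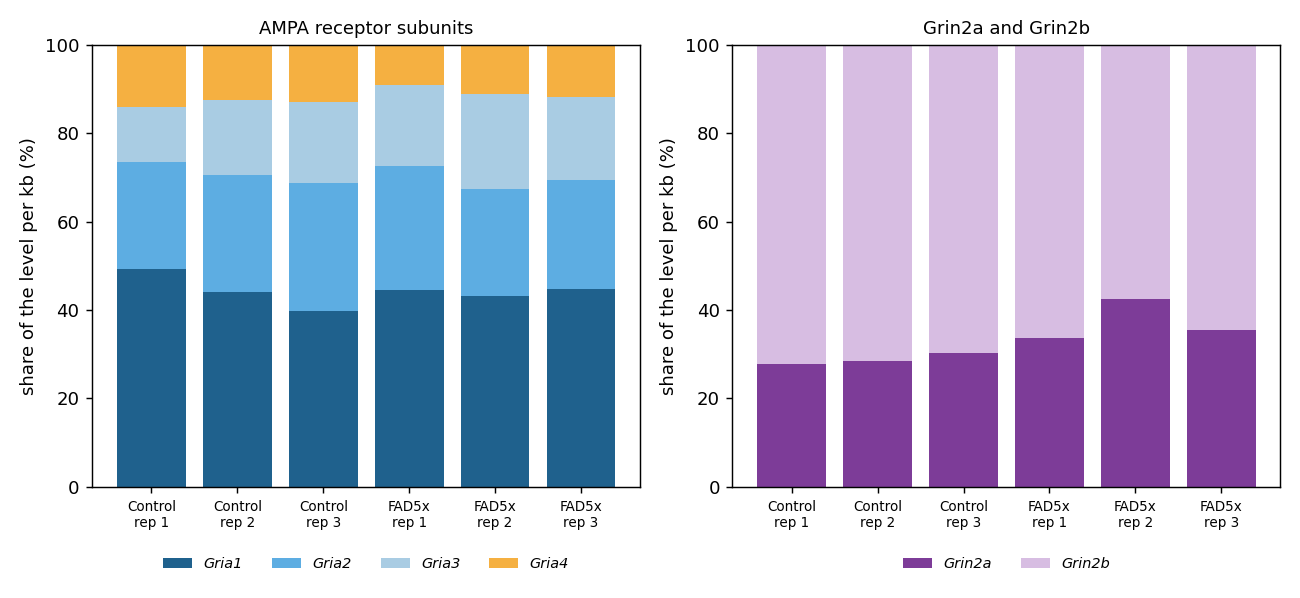
Share of the level per kilobase (vertical axis, in percent) taken by each AMPA subunit gene (left) and by Grin2a and Grin2b (right), with a bar per library. The Grin2a part is 33.6% to 42.5% in FAD5x and 27.9% to 30.4% in Control.

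Per kilobase, Gria1 was the most abundant transcript in Control, at 65.0 ± 11.2 CPM per kb (SD, n = 3). Grin1 followed at 44.7 ± 3.74 and Gria2 at 38.7 ± 3.03, and the ranges of these last genes overlapped. Next came Grin2b at 26.8 ± 3.99, Gria3 at 22.9 ± 3.44, Gria4 at 19.4 ± 2.76 and Grin2c at 15.8 ± 1.53, each overlapping its neighbour. Grin2a stood below them at 10.96 ± 2.26, and Grin2d at 5.09 ± 1.10 overlapped with Grin3a at 4.87 ± 0.709. In FAD5x the order at both ends was the same, with Gria1 at 54.9 ± 2.75, Grin1 at 43.5 ± 8.57 and Gria2 at 32.0 ± 2.55 on top and Grin2d at 3.75 ± 0.918 and Grin3a at 2.88 ± 0.376 at the bottom. The ranges of Gria1 and Grin1 overlapped in FAD5x, as did those of Grin2d and Grin3a. Grin2b stood at 15.4 ± 2.20 CPM per kb in FAD5x, below Gria3 at 24.2 ± 1.90, and overlapped with Grin2c at 16.6 ± 2.11 and Gria4 at 13.4 ± 2.17. These levels depend on the gene length used. With the longest annotated transcript in place of all exons, Grin1 led in both groups with Gria1 after it, and Grin3a stood above Grin2d at the bottom in both groups.

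Other ionotropic glutamate receptor genes were set beside the 10 subunits. Of 8 kainate, delta and remaining NMDA receptor genes 7 were tested, and 0 were called (edgeR, with 0 at an unadjusted p below 0.05, and 0 by DESeq2 or limma-voom). Their median was -0.09. Grik5 and Grik3, the most abundant of them and both kainate receptor genes, had -0.09 ± 0.13 (adjusted p = 0.727) and -0.25 ± 0.18 (0.454). Grin3b, the second GluN3 gene, stood at 0.104 to 0.661 CPM and was not tested. Of both GluN3 genes, Grin3a was the one with enough counts to test in these libraries.

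Of 20 genes for auxiliary and assembly proteins, which escort AMPA receptors and tune the gating, 0 were called (edgeR and limma-voom), and the median was -0.07. At an unadjusted p below 0.05 in edgeR stood 5 of the 20, against 21.3% of all tested genes. The most abundant were Olfm1, which encodes a secreted noelin, at 0.01 ± 0.23 (adjusted p = 0.985), and Nptxr, a pentraxin receptor, at -0.36 ± 0.19 (0.332). The 5 genes with a low unadjusted p, named after their values were seen, went both ways. Shisa6, Shisa9 and Cacng4 had -0.90, -0.55 and -0.79, and Cacng8 and Cpt1c had 0.38 and 0.30. Of these, 0 passed the adjusted threshold in edgeR (adjusted p = 0.1004 to 0.178). DESeq2 called 2, Shisa6 and Shisa9, and 8.7% of all tested genes.

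Among 15 scaffold and trafficking genes 1 fell and 0 rose, and the median was -0.22. Grip1, which encodes a PDZ protein that binds the tails of GluA2 and GluA3, had 19.7, 14.5 and 25.4 CPM in the FAD5x libraries, against 50.2, 37.3 and 36.6 CPM in Control. The groups were far apart, and the level was 2.08-fold lower in FAD5x (-1.06 ± 0.22, adjusted p = 0.0438). The Grip1 call ended without FAD5x replicate 1 (0.105) and without Control replicate 1, 2 or 3 (0.169, 0.116 and 0.0967). It also ended with library totals only (0.0838), upper-quartile scaling (0.0569), protein-coding genes only (0.0511) and FAD5x replicates 1 and 2 summed (0.0506). The same held with a replicate block (0.113) and without FAD5x replicate 1 and Control replicate 1 together (0.313). In all, 6 of 16 refits called Grip1. Dlg2, Shank2 and Homer1, scaffolds of the postsynaptic density named after their values were seen, had -0.69, -0.58 and -0.51 at an unadjusted p below 0.05 and adjusted p of 0.0835, 0.132 and 0.179 in edgeR. DESeq2 called 3 genes of this list, Grip1, Dlg2 and Shank2. Of all tested genes 8.7% were called with DESeq2, and 21.3% had an unadjusted p below 0.05 in edgeR.

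Of 16 genes for signalling proteins coupled to these receptors 1 fell and 0 rose, and the median was 0.02. Fyn and Srr, which encode a kinase of GluN2 tails and serine racemase, had -0.63 and -0.42 at an unadjusted p below 0.05. Ptpn5 and Rasgrf1, which encode a phosphatase acting on GluN2B and a calcium-activated Ras exchange factor, had 0.81 and 0.41, and these 4 genes, named after their values were seen, had adjusted p of 0.0682 to 0.137 in edgeR. DESeq2 called Fyn, Ptpn5 and Rasgrf1 among them. Of all tested genes 8.7% were called with DESeq2, and 21.3% had an unadjusted p below 0.05 in edgeR. Ptpn5 had 263.6, 175 and 124 CPM in the FAD5x libraries, against 92.4, 106 and 122 CPM in Control. All FAD5x libraries lay above all Control libraries, and the highest was FAD5x replicate 1, the library high in striatal markers; the part of those cells was not tested.

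The summed levels of neuronal markers overlapped between the groups. The 10 pan-neuronal markers summed to 6159, 9233 and 5985 CPM in the FAD5x libraries, against 5538, 5745 and 6856 CPM in Control, with a median difference of 0.23, and 0 were called (edgeR, with 1 at an unadjusted p below 0.05). The 9 markers of cortical excitatory neurons summed to 2157 to 4387 CPM in FAD5x and 2438 to 3634 CPM in Control, with a median of 0.02 and 0 called (edgeR, with 0 at an unadjusted p below 0.05). FAD5x replicate 2 was the highest library in both lists, and it was also the highest for Grin1 and the highest FAD5x library for Grin2a and Grin2b. Relative to the pan-neuronal sum, a comparison made after the data were seen and without a test, all 10 subunits were below 0, with a median of -0.48. Grin2b was then at -1.01 and Grin3a at -0.97, and 6 of 10 subunits did not overlap between the groups, against 20.4% of all tested genes. Dividing by this sum moves the mean difference of every gene down by the same amount. The signs, the median and the count without overlap therefore partly reflect the divisor. Gria3, for example, moved from 0.09 to -0.12, and Grin1 and Grin2a overlapped between the groups in CPM but not on this scale. Of the 10 markers in the sum, 6 were above 0 and 4 below. Snap25 had the highest level of the 10 in FAD5x and the largest difference (0.75 ± 0.30, edgeR adjusted p = 0.202). It stood at 1669, 3508 and 1844 CPM in the FAD5x libraries, against 1221, 1254 and 1692 CPM in Control. The sum without Snap25 was not computed. The median of all genes on this scale was not computed.

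The 9 interneuron markers summed to 924 to 1216 CPM in FAD5x and 1029 to 1518 CPM in Control, with 3 above 0, 6 below 0, a median of -0.18 and 0 called (edgeR, with 1 at an unadjusted p below 0.05). DESeq2 and limma-voom also called 0 in these 3 neuronal lists. Control replicate 1 was the highest library for this sum, with Gad1, the enzyme of GABA synthesis, at 834 CPM against 321 to 662 CPM elsewhere. The interneuron markers did not move together in this library. Gad2, Slc32a1, Npy and Adarb2 were also highest in Control replicate 1, while Pvalb, Sst and Lhx6 were lowest there, at 11.9, 46.5 and 7.54 CPM. Control replicate 1 was also the highest library for Gria1, Gria4, Grin2d and Grin3a. Sst, the marker of the somatostatin interneurons in which Grin3a is typically found, had 143, 124 and 124 CPM in the FAD5x libraries, against 46.5, 102 and 132 CPM in Control (0.48 ± 0.33, adjusted p = 0.460). Pvalb, the marker of the parvalbumin interneurons named for Gria4, had 19.3, 60.6 and 20.5 CPM in the FAD5x libraries. In Control it had 11.9, 15.1 and 31.6 CPM (0.78 ± 0.55, edgeR adjusted p = 0.479). Microglial markers summed to 352 to 762 CPM in FAD5x and 242 to 365 CPM in Control, with 7 of 7 above 0 and C1qa called. Oligodendrocyte markers summed to 4038 to 7779 CPM in FAD5x and 2904 to 4294 CPM in Control, with 8 of 8 above 0 and Mobp called. The part of these cell types in the subunit differences was not tested. FAD5x replicate 1 had the most microglial, oligodendrocyte and striatal marker RNA. Without it 0 subunits were called, with Grin2b at -0.80 (adjusted p = 0.123), Grin3a at -0.87 (0.0559), Gria4 at -0.43 (0.223) and Grin2d at -0.28. That fit called 204 of 17551 genes in all, or 1.16%. The count was also 0 without FAD5x replicate 3 and without Control replicate 1, 2 or 3, so it is not particular to FAD5x replicate 1.

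**Figure D4:**
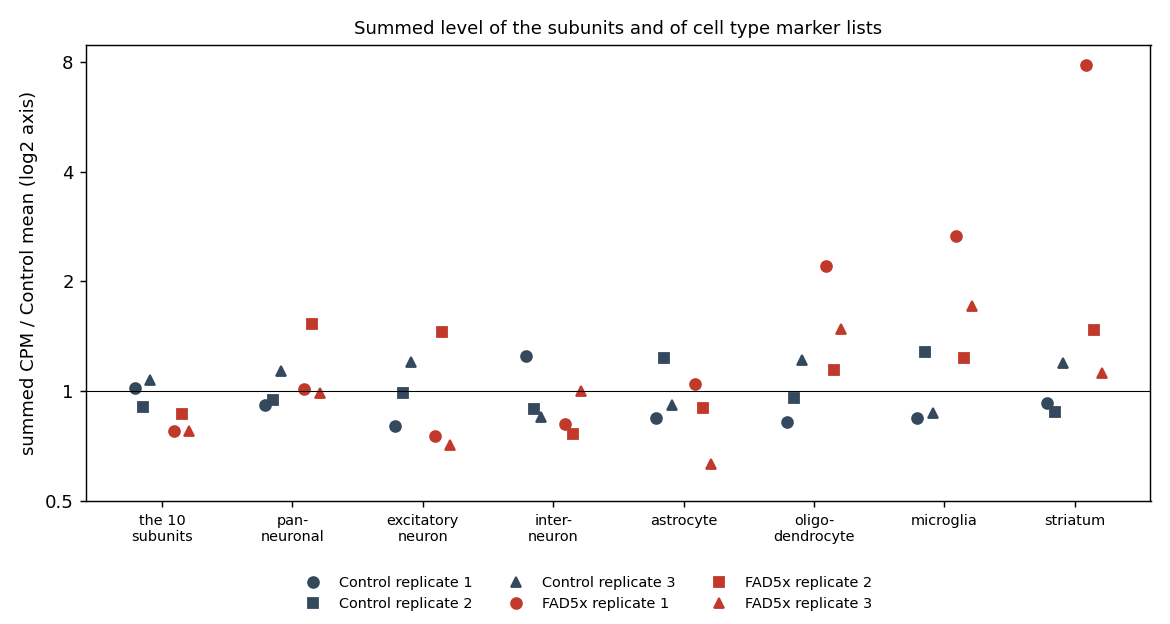
Summed CPM of the 10 subunits and of 7 marker lists in each library, divided by the mean of the Control libraries (log2 axis). The summed level of the 10 subunits is below the Control libraries in all 3 FAD5x libraries. Singly, 4 of the 10 genes are apart, and Grin2b has the largest gap of group means (383 CPM in FAD5x, 665 CPM in Control). The pan-neuronal and excitatory lists overlap, and FAD5x replicate 1 stands far above the rest in striatal markers.

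The mean profile of the 10 subunits over the 6 libraries, each gene centred on its own mean, stood at -0.23, -0.09 and -0.16 for the FAD5x libraries and at 0.25, 0.04 and 0.19 for the Control libraries (log2). The single subunit nearest to it was Gria2, with a root mean square difference of 0.12, and the farthest was Grin2b, at 0.28, whose own contrast was larger. Among the other protein-coding genes, 4 of the 5 nearest were Ttpal (0.03), Naa35 (0.04), Zfp354c (0.04) and Trio (0.04). These distances are over 6 libraries and describe likeness of profile only. Ttpal had -0.33 with an adjusted p of 0.145, and 0 of these 4 passed the test in edgeR (2 at an unadjusted p below 0.05, Ttpal and Zfp354c).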

How the data were processed

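Per the labels' protocols, RNA was isolated with TRIzol and RNeasy from cortex that had been flash frozen; library preparation and strandedness are not given in the sources used here. The authors deposited raw counts per gene, and the submitters' processing notes name cutadapt, STAR 2.7.11b, featureCounts, edgeR 3.38.4, limma and the build GRCm39, with no roles. Of 47729 lines 1 held a cell that is not a number and was left out. Symbols and exon lengths came from GENCODE M21, an earlier build, by identifier (47309 matched, 419 not), so no coordinates are given. Libraries were matched by the names in the labels.

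Counts were tested with edgeR 4.0.16 (R 4.3.3): filterByExpr, TMM scaling, genotype as the only term, robust quasi-likelihood F-test, two-sided, Benjamini-Hochberg over all 17074 tested genes. The steps were tested on simulated counts. Alternatives were limma-voom (limma 3.58.1), DESeq2 1.42.0, other scalings, no filter, protein-coding genes only, a replicate block and libraries left out. The members and lists were chosen with earlier results of these data known. Besides the subunits, the text names up to 3 called genes per list, or the 2 most abundant where none was called, and the 5 genes nearest in profile. Likeness used log2 of CPM plus 0.5. Sequences came from GENCODE M21 transcripts with the longest reading frame, aligned with Biopython 1.88. Some genes and a sequence that this rule selects are not reported here.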

Additional observations from a re-analysis of the deposited data

How the results depend on the processing

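The number of subunits called, 1 in the edgeR fit, was 2 with upper-quartile scaling, 2 with no filter on low counts, 3 with DESeq2, 2 at an adjusted p below 0.1 and 0 to 2 with single libraries left out. Of alternatives added after the data were seen, it was 0 without FAD5x replicate 1 and Control replicate 1 together and 2 with FAD5x replicates 1 and 2 summed. The median of -0.26 was -0.12 without that pair of libraries and -0.48 relative to the pan-neuronal markers, and -0.33 to -0.26 with single libraries left out. The differences of Gria1, Gria2, Gria4, Grin2a, Grin2b, Grin2d and Grin3a were below 0 under all 16 refits. Those of Gria3, Grin1 and Grin2c, none of them called in any refit, changed sign: with single libraries left out Gria3 was -0.0214 to 0.20, Grin1 -0.20 to 0.07 and Grin2c -0.0047 to 0.18. Grin1 was 0.0829 without the pair of libraries. Gria3 and Grin2c were -0.12 and -0.15 relative to the pan-neuronal markers, a scale that moves every gene down by the same amount. The gap in the Gria2 share was -2.06 to 0.353 points with single libraries left out. Apart from the shared shift of the pan-neuronal scale, the cause was not tested in these cases.

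With the replicate number as a block, 0 subunits were called (3 at an unadjusted p below 0.05) and 72 genes in all, against 537. The all-gene count was also 1485 with DESeq2, 1063 with no filter, 81 to 989 with single libraries left out and 34 without the pair. Samples with the same number share only that number: their deviations correlated at -0.05, -0.10 and -0.35. No sample correlated best with the sample of its own number in the other group. Counts of 459 to 13769 per library lie behind each subunit, so counting error is small and the 3 libraries per group limit precision.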
